A study of Mus musculus with 45 samples.

Results

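Malat1, Neat1, Tug1 and Miat are long noncoding RNAs (lncRNAs) with nuclear roles, and Gas5, Snhg1, Snhg3, Snhg8 and 1500012F01Rik (Zfas1 in RefSeq) are genes that carry small nucleolar RNAs (snoRNAs) in their introns. These 9 genes were chosen by name, with earlier results of these data known. 1500012F01Rik was added because it rose in homozygous ΔPG cells, so its genotype differences in that line are given as a description without a test. Its RA differences in that line use samples that took part in this choice and are a description too. Of the 9, 8 have a value in each of the 2 deposited tables, which list 33924 genes each, and Snhg8 has no value under this or an older symbol.

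Malat1 RNA gathers in nuclear speckles, the nuclear domains rich in splicing factors, and Neat1 RNA is the scaffold of paraspeckles. A snoRNA host gene is transcribed and spliced, its introns release snoRNAs that guide the modification or processing of ribosomal RNA, and its joined exons form an RNA with little coding capacity. The spliced host RNAs are commonly targets of nonsense-mediated decay, so the level of a host RNA need not follow that of its snoRNAs.

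The cells of the RNA samples were D3 mouse embryonic stem cells (ESCs) with an edited lncRNA gene, 5430416N02Rik. In ΔPG cells a PGK-puro cassette stands in place of its promoter and gene body, and in ΔG cells a GFP-IRES-Puro cassette stands in place of the gene body alone. Heterozygous and homozygous cells of both lines were kept for 48 h in DMSO (ES) or in 2 µM retinoic acid (RA), which makes 8 groups with 3 samples each. Total RNA without ribosomal RNA was sequenced with strand information, and what is analysed here is its rlog, the regularized logarithm to base 2, which shrinks differences of weakly expressed genes. The 12 ΔPG and the 12 ΔG samples form separate tables that were normalized separately, so every test stays within a table. The study's plots name a single clone for each genotype of this experiment, so clone and genotype cannot be told apart. The samples are called biological replicates, but how the cultures were separated is not stated, and the p-values measure the spread between these samples, which may be technical. The depth of the samples is unknown, since the tables hold no counts.

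The edited gene itself followed the labels. In ΔPG ES cells 5430416N02Rik had rlog values of 4.62, 4.58 and 4.59 in heterozygous and of 2.23, 2.21 and 2.46 in homozygous samples, and after RA of 4.24, 3.80 and 4.44 against 2.66, 2.12 and 2.28. In ΔG ES cells the values were 5.58, 5.54 and 5.50 in heterozygous and 2.63, 2.77 and 2.85 in homozygous samples, and after RA 5.64, 5.52 and 5.58 against 2.63, 3.08 and 2.77. Within each line and treatment the 3 homozygous samples all lay lower than the 3 heterozygous ones.

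The treatment also followed the labels. All 8 markers of undifferentiated ESCs were lower after RA in each of the 4 combinations of line and genotype, and their summed level, led by Dppa5a, went from between 13.91 and 14.19 in the ES samples to between 10.63 and 10.73 in the RA samples (log2). All 6 genes of the retinoic acid response and all 5 primitive endoderm markers were higher after RA in each of the 4 combinations. The summed level of the primitive endoderm markers, led by Lama1, was 8.51 to 9.36 in ES and 10.42 to 11.68 in RA samples, that of the neural markers, led by Nes, was 7.28 to 8.48 and 9.18 to 9.54, and that of the fibroblast or feeder markers, led by Col1a2, was 4.49 to 5.18 and 7.86 to 9.25. Per the study's methods no feeder cells were used for these ESCs. Of these 4 markers 3 were higher and 1 lower in each ΔPG genotype, and 3 were higher in heterozygous and 2 in homozygous ΔG cells. Between genotypes 3 of the 5 primitive endoderm markers were lower in homozygous ΔPG RA cells and 1 in homozygous ΔG RA cells, and 1 of 2 neural markers was lower in homozygous ΔPG ES cells. The summed level of the endoderm markers was 10.42 to 10.48 in homozygous against 11.32 to 11.37 in heterozygous ΔPG RA samples. In ΔG RA samples it was 10.73 to 10.74 against 11.62 to 11.68. That of the neural markers was 7.68 to 7.93 against 8.40 to 8.48 in ΔPG ES samples, but 9.39 to 9.43 against 9.18 to 9.23 in ΔG RA samples. In homozygous ΔG RA cells 1 of the 4 fibroblast or feeder markers was lower as well, with a summed level of 7.86 to 8.04 against 9.13 to 9.25 in heterozygous ones. Of the 8 ESC markers 1 was lower in homozygous ΔPG cells in ES and 1 in RA, and of the 6 response genes 1 was higher in homozygous ΔPG RA cells. The part of these in the genotype differences was not tested. Among the neural markers Sox1 has no value, and Neurog1 is listed at 0 in all ΔPG samples. A change in the mix of cells may enter every RA difference given here, its part was not tested, and fewer cells of a type and less RNA per cell cannot be told apart in such bulk samples.

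The ΔPG ES groups also differed by base composition. Across the 11904 genes whose mean rlog reached 3, the difference between homozygous and heterozygous ΔPG ES cells fell with exonic GC content (Pearson r = -0.705 across genes, which are not independent replicates). The 10% of genes poorest in G and C (median 39.9%) differed by a median of 0.59 and the 10% richest in them (median 59.6%) by a median of -0.45 on the log2 scale. Relative to the mean of the table, the GC-poor genes minus the GC-rich genes gave log2 values of -0.62, -0.62 and -0.61 in the 3 heterozygous ΔPG ES samples and of 0.43, 0.43 and 0.51 in the homozygous ones, whereas the ΔPG RA samples were at 0.075, 0.060 and 0.092 (heterozygous) and 0.16, 0.074 and 0.049 (homozygous). The same correlation was 0.00567 in ΔG ES, -0.00108 in ΔPG RA and 0.115 in ΔG RA cells, and for RA against ES it was -0.208 in heterozygous ΔPG, 0.121 in homozygous ΔPG, 0.110 in heterozygous ΔG and 0.135 in homozygous ΔG cells. Exonic GC content is 38.5% for Tug1, 40.7% for Snhg1, 42.5% for Malat1, 43.6% for Gas5, 44.4% for Snhg3, 47.3% for Neat1, 48.1% for 1500012F01Rik and 54.9% for Miat. The annotated exons of Snhg1 cover its whole span of 2947 bases and those of Gas5 3760 of 4118. The GC content of Snhg1 and Gas5, and so the size of their correction, may differ from that of the spliced RNA. Several differences of the 8 genes that involve the ΔPG ES groups are therefore also given with the trend removed, and Miat has no such value because its mean is below the limit of 3. Differences of other genes and lists that involve these groups are given without this correction.

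**Figure D1:**
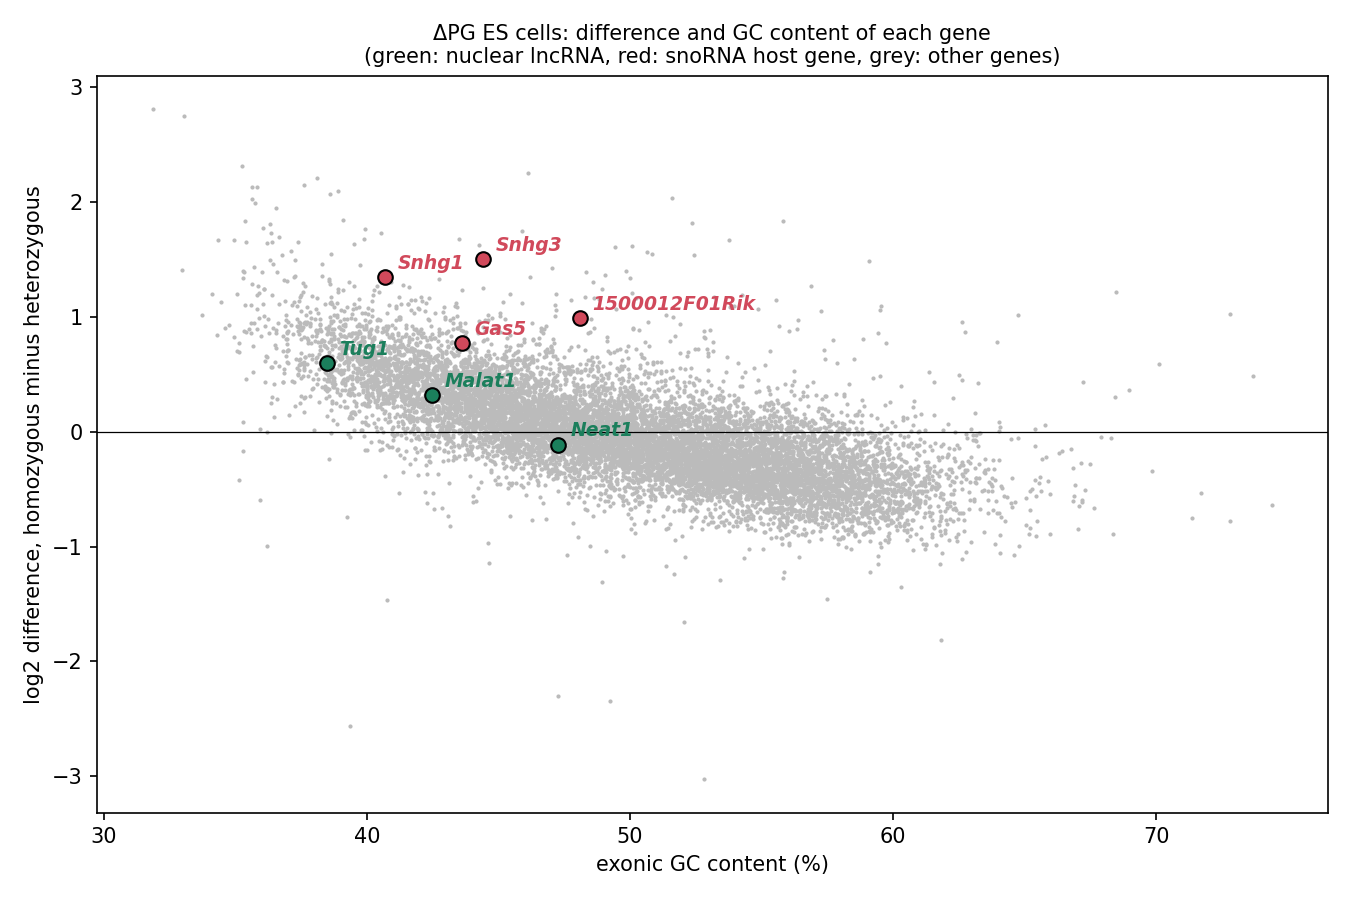
The log2 difference between homozygous and heterozygous ΔPG ES cells (vertical axis) against exonic GC content in percent (horizontal axis), 1 point per gene. Tug1, Malat1 and Neat1 (green) lie within the band of other genes (grey), while Snhg1, Snhg3 and 1500012F01Rik (red) lie above most genes of their GC content. 1500012F01Rik was chosen for its rise in homozygous ΔPG cells, so its place is no independent result. Gas5 (red) differed by 0.77, and by 0.45 with the GC trend removed.

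Per length of exon, the 8 genes kept a common frame in all groups. The length is that of all annotated exons joined. It is 2947 bases of a span of 2947 for Snhg1, 3760 of 4118 for Gas5, 20771 of 20771 for Neat1 and 986 of 5673 for Snhg3. The order depends on these gene models and need not be that of RNA abundance. With the log2 of exonic length in kb subtracted from the rlog value, Malat1 was the highest in all 8 groups, at 9.32 (heterozygous ΔG RA) to 10.05 (homozygous ΔG ES). Snhg3 was at 4.23 to 6.02, Neat1 at 1.88 (homozygous ΔPG RA and heterozygous ΔG ES) or above and Miat at -2.10 to -1.41, and these were the lowest of the 8, in this order, in all 8 groups. Tug1, 1500012F01Rik, Snhg1 and Gas5 lay between Malat1 and Snhg3 in an order that changed between groups. In heterozygous ΔPG ES cells it was Tug1 at 6.20 ± 0.028 (SD, n = 3), 1500012F01Rik at 5.99 ± 0.043, Gas5 at 5.77 ± 0.031 and Snhg1 at 5.59 ± 0.085, each step larger than the spread of both neighbors. In homozygous ΔPG ES cells 1500012F01Rik at 6.98 ± 0.059 and Snhg1 at 6.94 ± 0.033 were within their spread of each other, ahead of Tug1 at 6.80 ± 0.077 and Gas5 at 6.55 ± 0.055.

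Malat1, a single-exon RNA of nuclear speckles on chromosome 19 (chr19:5795690-5802671, minus strand, NCBIM37), varied little between samples of a group. In ΔPG ES cells its rlog values were 12.46, 12.43 and 12.49 in heterozygous and 12.77, 12.76 and 12.80 in homozygous samples. In ΔPG RA cells they were 12.70, 12.69 and 12.69 in heterozygous and 12.45, 12.46 and 12.46 in homozygous samples. The homozygous samples thus lay above the heterozygous ones in ES and below them in RA, without overlap in either state. ΔG cells had ES values of 12.49, 12.52 and 12.55 in heterozygous and 12.85, 12.85 and 12.87 in homozygous samples, and RA values of 12.18, 12.17 and 12.02 against 12.60, 12.66 and 12.60. Here the homozygous samples were above the heterozygous ones in both states, and the difference between the lines was not tested.

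The genotype differences of Malat1 were 0.32 ± 0.018 (log2, SE) in ΔPG ES, -0.24 ± 0.014 in ΔPG RA, 0.34 ± 0.017 in ΔG ES and 0.50 ± 0.032 in ΔG RA cells. Each had an adjusted p under 0.1 in limma with Benjamini-Hochberg adjustment (9.12e-06, 1.35e-05, 0.000167 and 1.16e-09), but none passed the second limit, an absolute log2 difference over 0.5, that a call needed as well. The ΔG RA difference was just under it and was called with the GC trend removed (0.51), under quantile normalization (0.51) and when homozygous ΔG RA replicate 1 or 3 or heterozygous ΔG RA replicate 1 or 2 was left out. The ΔPG ES difference was -0.083 with the GC trend removed and 0.085 (adjusted p = 0.165) under quantile normalization. With the GC trend removed its sign was thus opposite to that in ΔG ES cells (0.33), while as deposited the signs were alike. The RA differences were 0.24 in heterozygous and -0.32 in homozygous ΔPG cells and -0.40 and -0.24 in the ΔG ones, all below the limit in size. Under quantile normalization they were 0.60 (called) and 0.17 in ΔPG and 0.039 and 0.12 in ΔG cells, and with the GC trend removed that of heterozygous ΔPG cells was -0.082, so the direction depends on the scaling. The RA difference in homozygous ΔPG cells minus that in heterozygous ones, tested as an interaction, was -0.56 ± 0.023 (adjusted p = 1.49e-09) and was called, but it was below the limit with the GC trend removed (-0.16) and under quantile normalization (-0.27).

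Tug1, a spliced lncRNA on chromosome 11 (chr11:3539797-3548815, minus strand, NCBIM37), had genotype differences of opposite sign in the ES cells of the 2 lines as deposited, but of the same sign with the GC trend removed, and the lines were not compared by a test. In ΔPG ES cells its rlog values were 8.91, 8.95 and 8.96 in heterozygous and 9.48, 9.51 and 9.62 in homozygous samples. In ΔPG RA cells they were 9.30, 9.28 and 9.27 against 9.11, 9.21 and 9.24. The homozygous samples were all higher in ES and all slightly lower in RA. The ΔG values in ES were 10.02, 9.90 and 9.99 in heterozygous and 9.65, 9.59 and 9.59 in homozygous samples, and the RA values were 9.49, 9.52 and 9.45 against 9.19, 9.22 and 9.15. In this line the homozygous samples were below the heterozygous ones in both states, and the RA samples below the ES samples.

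Tug1 rose by 0.60 ± 0.042 (log2, SE) in homozygous ΔPG ES cells (adjusted p = 2.56e-05), but with the GC trend removed the difference was -0.10. In ΔPG RA it differed by -0.098 ± 0.040 (adjusted p = 0.294). In ΔG the differences were -0.36 ± 0.038 in ES (adjusted p = 0.00383) and -0.30 ± 0.048 in RA (adjusted p = 0.000267), under the limit on size. RA differences were 0.35 in heterozygous and -0.35 in homozygous ΔPG cells, and their difference of -0.70 ± 0.060 was called (adjusted p = 1.32e-06). With the GC trend removed these values were -0.13, -0.14 and -0.016, and under quantile normalization the difference in heterozygous cells was 0.50 and called. The RA differences in ΔG cells were -0.48 in heterozygous and -0.43 in homozygous samples, again under the limit on size. With a sample left out in turn, 4 to 5 of the 8 genes were called with RA in heterozygous ΔG cells, beside 4 in the full fit. Of the genes not called there, Tug1 lay nearest to the limit.

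Neat1, the paraspeckle RNA next to Malat1 on chromosome 19 (chr19:5824708-5845478, minus strand, NCBIM37), was called in none of the 10 comparisons as deposited, but with the length trend removed its RA difference was called in heterozygous ΔPG (-0.52) and homozygous ΔG cells (-0.53). Its values ranged from 6.01 to 6.53 over the ΔPG and from 6.19 to 6.50 over the ΔG samples. In ΔG ES cells they were 6.34, 6.19 and 6.24 in heterozygous and 6.45, 6.47 and 6.49 in homozygous samples, without overlap, at a difference of 0.22 ± 0.068 (adjusted p = 0.179). In ΔPG the genotype differences were -0.11 ± 0.062 in ES and -0.21 ± 0.11 in RA, with overlapping samples, the ES difference was -0.20 with the GC trend removed, and the lowest value, 6.01, was that of a single homozygous RA sample.

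Miat, a lncRNA on chromosome 5 (chr5:112642248-112657968, minus strand, NCBIM37), had the lowest values, from 1.18 to 1.75 in ΔPG and from 1.01 to 1.74 in ΔG samples, where shrinkage is strong. In ΔPG RA cells its values were 1.63, 1.25 and 1.26 in heterozygous and 1.75, 1.68 and 1.73 in homozygous samples, and in ES cells 1.43, 1.65 and 1.40 against 1.24, 1.23 and 1.18. In ΔG RA cells they were 1.05, 1.05 and 1.01 against 1.41, 1.66 and 1.74, and in ES cells 1.08, 1.24 and 1.37 against 1.25, 1.22 and 1.13. The homozygous RA samples were the 3 highest of each table, in both by little.

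Miat rose in homozygous ΔG RA cells by 0.57 ± 0.14 (log2, SE; adjusted p = 0.0139), and without homozygous ΔG RA replicate 3 the difference was 0.50 and not called. It rose with RA in homozygous ΔPG cells by 0.50 ± 0.12 (adjusted p = 0.00575), a value just over the limit on size. That call was lost without homozygous ΔPG RA replicate 1 or 3 or homozygous ΔPG ES replicate 3, and under median centring (0.49) and quantile normalization (0.33). The interactions were 0.61 ± 0.18 in ΔPG (adjusted p = 0.0201) and 0.60 ± 0.18 in ΔG cells (adjusted p = 0.0680), and the second was lost when most single samples were left out.

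Gas5, whose introns hold snoRNAs of the C/D box class, lies on chromosome 1 (chr1:162964553-162968670, plus strand, NCBIM37) and was lower after RA in every combination of line and genotype. In ΔPG cells the heterozygous values were 7.72, 7.67 and 7.66 in ES and 7.06, 7.08 and 6.79 in RA samples. The homozygous values were 8.52, 8.42 and 8.43 in ES and 7.53, 7.46 and 7.38 in RA samples. Neither treatments nor genotypes overlapped in this line. In ΔG cells the heterozygous values were 8.35, 8.27 and 8.43 in ES and 7.43, 7.38 and 7.57 in RA samples, and the homozygous ones 8.60, 8.64 and 8.68 against 7.46, 7.63 and 7.38. The ΔG genotypes were apart in ES and overlapped after RA.

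Gas5 fell with RA in all 4 combinations, with log2 differences of -0.71 ± 0.078 (SE) in heterozygous ΔPG (adjusted p = 0.000153), -1.001 ± 0.059 in homozygous ΔPG (8.34e-08), -0.89 ± 0.071 in heterozygous ΔG (1.69e-07) and -1.15 ± 0.072 in homozygous ΔG cells (2.10e-10). With the GC trend removed the ΔPG values were -0.97 in heterozygous and -0.94 in homozygous cells. Gas5 rose in homozygous ΔPG ES cells by 0.77 ± 0.043 (adjusted p = 8.21e-06), and with the GC trend removed the difference was 0.45 and under the limit on size. The difference in ΔPG RA cells was 0.48 ± 0.083 (adjusted p = 0.0130), just under that limit, and it was called without homozygous ΔPG RA replicate 3 or without heterozygous ΔPG RA replicate 1 or 2. Between ΔG genotypes Gas5 differed by 0.29 ± 0.051 in ES (adjusted p = 0.0319) and 0.032 ± 0.083 in RA (adjusted p = 0.882).

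Snhg1, a host of C/D box snoRNAs on chromosome 19 (chr19:8797986-8800932, plus strand, NCBIM37), stood far lower in heterozygous than in homozygous ΔPG ES cells. In ΔPG cells the heterozygous values were 7.17, 7.06 and 7.22 in ES and 6.98, 6.75 and 6.97 in RA samples. The homozygous values were 8.52, 8.46 and 8.52 in ES and 7.42, 7.40 and 7.26 in RA samples. The step from ES to RA was thus small in heterozygous and large in homozygous cells. The ΔG values were 8.49, 8.56 and 8.69 in heterozygous and 8.33, 8.28 and 8.39 in homozygous ES samples, and 7.42, 7.37 and 7.14 against 7.38, 7.64 and 7.33 in RA samples. There the homozygous ES samples were a little below the heterozygous ones, and the RA samples overlapped.

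Snhg1 rose in homozygous ΔPG ES cells by 1.35 ± 0.052 (log2, SE; adjusted p = 1.86e-06), and the rise was 0.81 and still called with the GC trend removed. In ΔPG RA cells the difference was 0.46 ± 0.078 (adjusted p = 0.0117), under the limit on size, and it was called without homozygous ΔPG RA replicate 3 or heterozygous ΔPG RA replicate 1. Between ΔG genotypes Snhg1 differed by -0.25 ± 0.062 in ES (adjusted p = 0.0927) and 0.14 ± 0.093 in RA (adjusted p = 0.461). Snhg1 fell with RA in homozygous ΔPG (-1.14 ± 0.059), heterozygous ΔG (-1.27 ± 0.082) and homozygous ΔG cells (-0.88 ± 0.080). In heterozygous ΔPG cells the RA difference was -0.25 ± 0.077 and not called, but it was -0.65 and called with the GC trend removed. The interaction in ΔPG was -0.89 ± 0.098 (adjusted p = 1.24e-05), and -0.36 and not called with the GC trend removed.

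Snhg3, the host of the H/ACA box snoRNAs Snora73a and Snora73b, lies on chromosome 4 (chr4:131903929-131909601, minus strand, NCBIM37) and overlaps Rcc1 on the same strand, so reads of shared exons make its values uncertain. In ΔPG cells its heterozygous values were 4.41, 4.56 and 4.34 in ES and 4.39, 4.13 and 4.096 in RA samples, and these overlapped. The homozygous values were 6.00, 5.95 and 5.86 in ES and 4.72, 4.42 and 4.31 in RA samples. The homozygous ES samples stood above the other 9 samples of the table. In ΔG cells the ES values were 6.04, 6.05 and 5.80 in heterozygous and 5.92, 6.21 and 5.86 in homozygous samples, and the RA values were 4.69, 4.65 and 4.46 against 4.75, 4.80 and 4.81. Both ΔG genotypes shared 1 level in ES.

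Snhg3 rose in homozygous ΔPG ES cells by 1.504 ± 0.091 (log2, SE; adjusted p = 1.30e-05), the largest genotype difference among the 8 genes, and by 1.24, still called, with the GC trend removed. In ΔPG RA cells the difference was 0.28 ± 0.15 (adjusted p = 0.464), and in ΔG cells it was 0.030 ± 0.12 in ES (adjusted p = 0.961) and 0.19 ± 0.12 in RA (adjusted p = 0.471). Snhg3 fell with RA in homozygous ΔPG (-1.45 ± 0.13), heterozygous ΔG (-1.37 ± 0.11) and homozygous ΔG cells (-1.21 ± 0.12), while the difference in heterozygous ΔPG cells was -0.23 ± 0.12 (adjusted p = 0.154). This value depends on the scaling, since it was -0.45 with the GC trend removed, 0.025 with the length trend removed and -0.58 and called under quantile normalization. The interaction in ΔPG was -1.23 ± 0.18 (adjusted p = 0.000125). It was -0.96 and still called after removal of the GC trend.

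1500012F01Rik, a host of snoRNAs of the SNORD12 family, lies on chromosome 2 (chr2:166888434-166891362, plus strand, NCBIM37), antisense to Znfx1. In ΔPG ES cells, the line it was selected on, its values were 6.89, 6.90 and 6.97 in heterozygous and 7.96, 7.93 and 7.84 in homozygous samples, and in RA cells they were 5.95, 5.82 and 5.92 against 6.98, 6.67 and 6.67. The homozygous samples were higher in both states, by 0.99 in ES and 0.88 in RA on the log2 scale, a description of what chose the gene. These differences were 0.95 and 0.89 after removal of the GC trend. In ΔG cells, which played no part in the choice, the ES values were 8.09, 8.07 and 8.14 in heterozygous and 7.74, 7.89 and 7.89 in homozygous samples, and the RA values were 6.66, 6.76 and 6.99 against 6.65, 6.42 and 6.43. The homozygous ΔG samples were lower in both states, in RA by little. The difference between the lines was not tested, since their tables were normalized separately.

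In ΔG cells the genotype differences of 1500012F01Rik were -0.26 ± 0.058 (log2, SE; adjusted p = 0.0685) in ES and -0.30 ± 0.10 (adjusted p = 0.0752) in RA, both under the limit on size. After RA 1500012F01Rik fell in ΔG cells, with limma differences of -1.30 ± 0.084 in heterozygous (adjusted p = 1.98e-08) and -1.34 ± 0.088 in homozygous cells (4.21e-10). In ΔPG cells it was lower after RA as well, with differences of -1.02 ± 0.057 in heterozygous and -1.13 ± 0.087 in homozygous cells. The ΔPG values are a description, because samples of that line took part in the choice of the gene. The RA difference was of similar size in both ΔG genotypes, with an interaction of -0.043 ± 0.12 (adjusted p = 0.894).

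**Figure D2:**
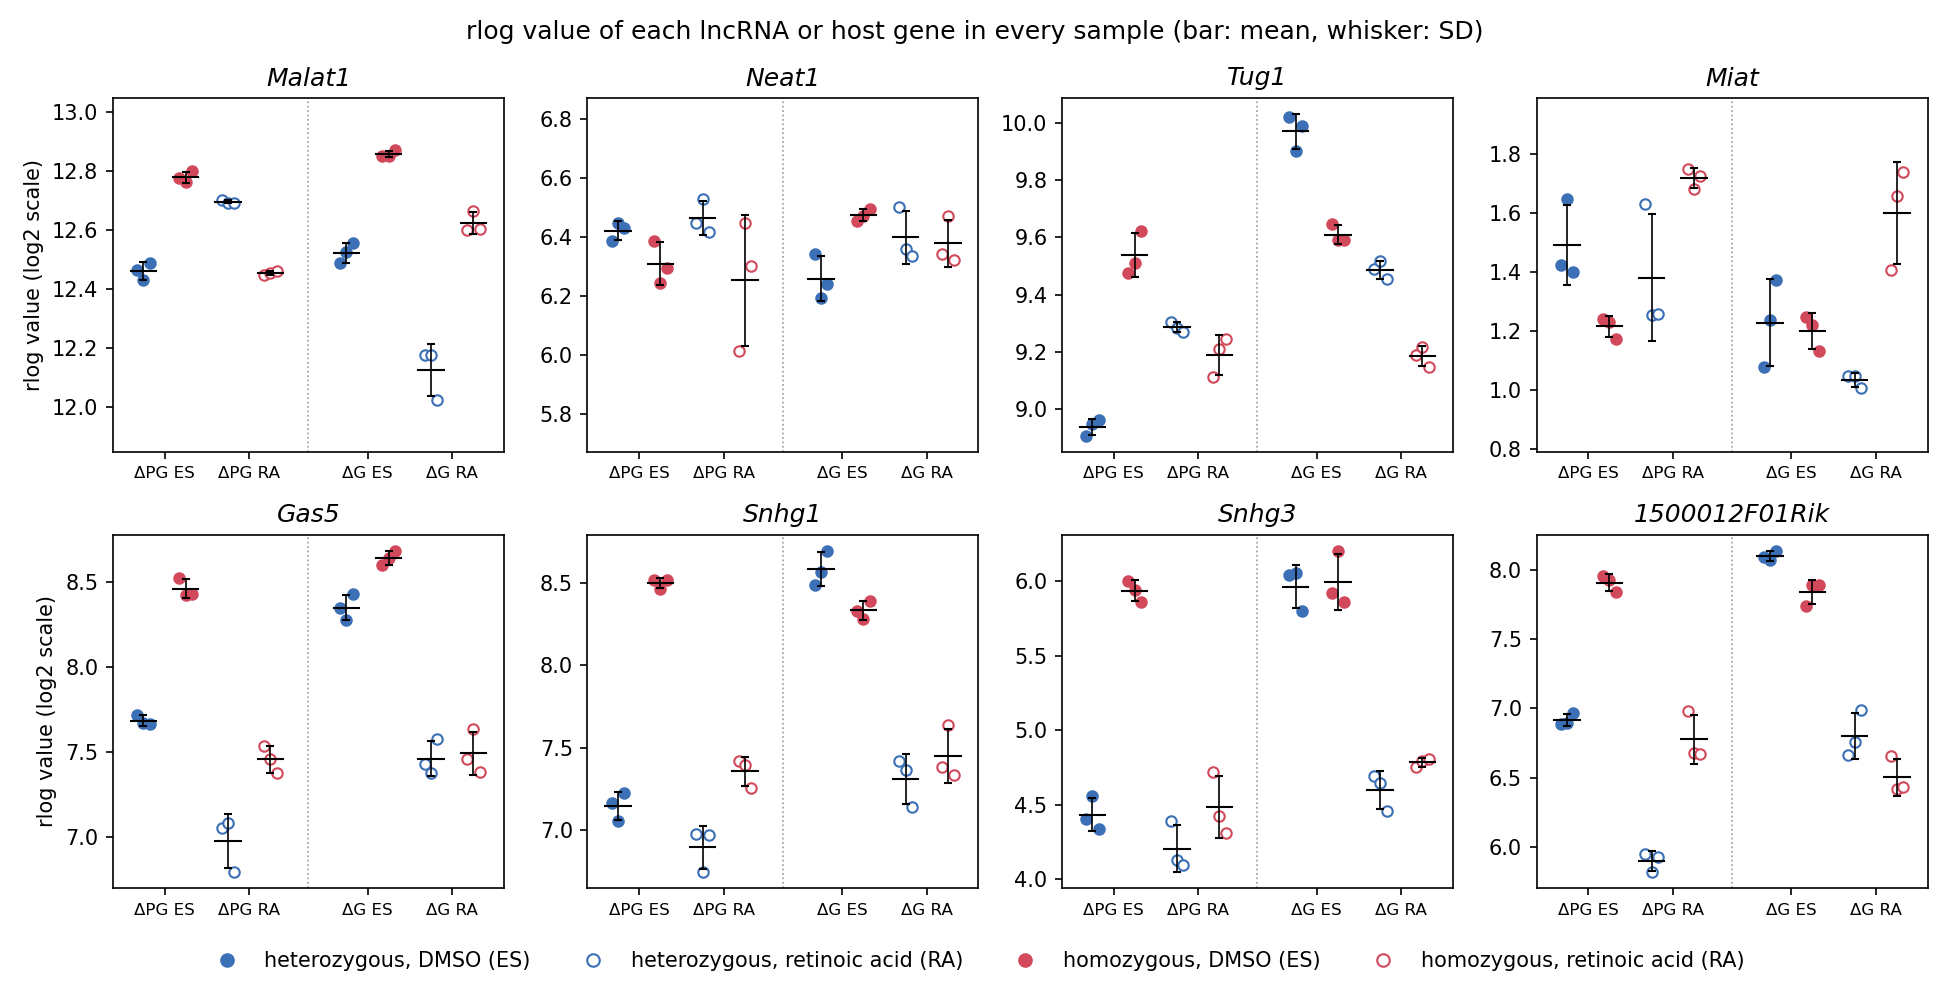
The rlog value (log2 scale) of the 8 genes in every sample, with ΔPG and ΔG on either side of the dotted line, filled points for ES and open points for RA, blue for heterozygous and red for homozygous samples, a bar for the mean and whiskers for the SD (n = 3). Gas5 and 1500012F01Rik are lower after RA in every combination, while the ES (4.34 to 4.56) and RA samples (4.096 to 4.39) of Snhg3 in heterozygous ΔPG cells overlap.

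Taken by comparison, the calls of the genes stood against those of all genes tested as follows. In ΔPG ES cells 4 of the 7 tested genes (Tug1, Gas5, Snhg1 and Snhg3) were higher in homozygous cells and 0 were lower, where 13.2% of all genes were called, 6.87% higher and 6.29% lower. All genes include many weak ones, while Miat alone of the 8 has a mean below 3, and of the 11904 genes with a mean of at least 3, tested alone, a larger share was called (2784). With the GC trend removed, over the same 11904 genes, 2 of them, Snhg1 and Snhg3, were called, and 865 in place of these 2784 genes. In ΔPG RA cells limma called 0 of 7 (5 had an unadjusted p under 0.05), against 0.846% of all genes, 0.241% higher and 0.605% lower. In ΔG ES cells it called 0 of 8 (6 had an unadjusted p under 0.05), against 0.984% of all genes, 0.354% higher and 0.63% lower. In ΔG RA cells it called 1 of 8, Miat, against 2.14% of all genes, 0.676% higher and 1.46% lower.

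After RA the calls on the deposited values were as follows. In heterozygous ΔPG cells 2 of the 8 genes were lower, Gas5 and 1500012F01Rik (31.6% of all genes were called, 18% higher and 13.6% lower). In homozygous ΔPG cells 4 were lower, which are all 4 host genes with values, and Miat was higher (27.8% of all genes were called, 16.5% higher and 11.3% lower). In both ΔPG genotypes the count includes 1500012F01Rik, which was chosen on samples of that line, so this part of the count is a description. The same 4 host genes were lower in heterozygous ΔG cells (29.5% of all genes were called, 17.7% higher and 11.7% lower) and in homozygous ΔG cells (29.2% of all genes were called, 17% higher and 12.1% lower), with no other gene of the 8 called in either. With the length trend removed further nuclear lncRNAs were called lower, Tug1 in homozygous ΔPG (-0.50), heterozygous ΔG (-0.62) and homozygous ΔG cells (-0.58), Malat1 in heterozygous ΔG cells (-0.55) and Neat1 as given above. Where genes with a mean rlog of at least 3 were tested alone, 5887 of 11904 were called in heterozygous ΔPG, 5068 of 11904 in homozygous ΔPG, 5457 of 11997 in heterozygous ΔG and 5569 of 11997 in homozygous ΔG cells, larger shares than those over all genes. The shares of all genes set beside the lists below include the weak genes too.

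As interactions in ΔPG cells, 5 of 7 genes were called, Malat1, Tug1, Snhg1 and Snhg3 lower and Miat higher, where 13.9% of all genes were called, 6.72% higher and 7.19% lower. The heterozygous ΔPG ES samples enter this test and the ΔPG ES comparison alike, so the calls share these samples. After removal of the GC trend, a fit on genes with a mean of at least 3, only Snhg3 was called, and 1122 genes in place of the 2976 called among the same genes without the removal. Miat has no value in either. In ΔG cells 1 of 8 was called, Miat, where 2.38% of all genes were called, 1.19% higher and 1.18% lower.

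**Figure D3:**
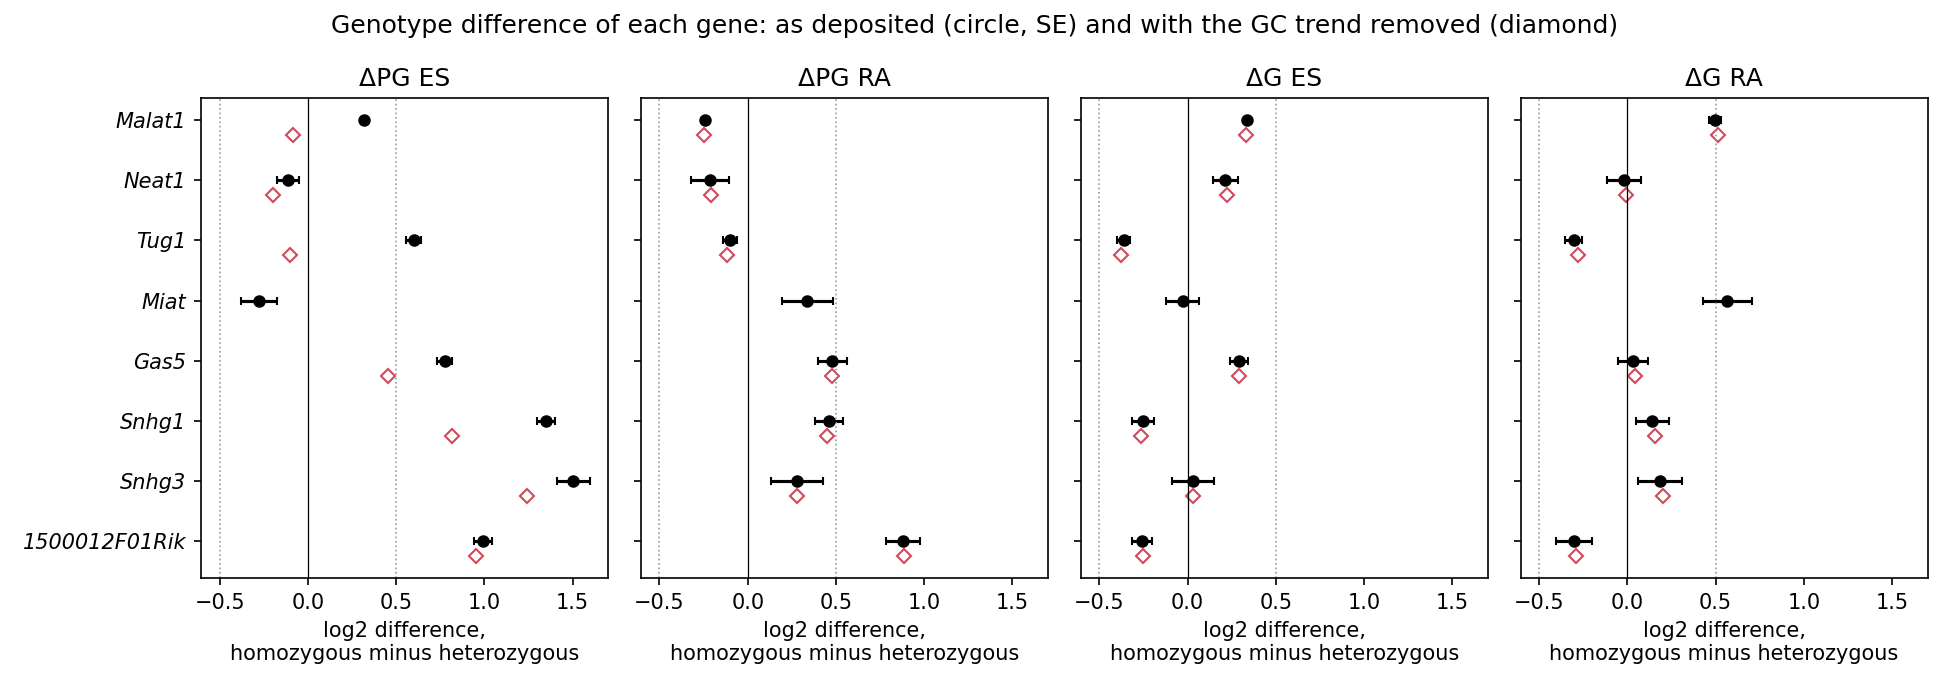
The log2 difference between homozygous and heterozygous cells (horizontal axis) of the 8 genes in the 4 combinations of line and treatment, as circles with SE and, as diamonds, with the GC trend removed, beside dotted lines at the limits of -0.5 and 0.5. Removal of the trend moved Malat1 from 0.32 to -0.083 and Tug1 from 0.60 to -0.10 in ΔPG ES cells, and Miat has no such value.

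Other snoRNA host genes, a list of 16 of which 12 could be tested, behaved in part like these. After RA 9 of the 12 were lower in heterozygous ΔPG, 9 in homozygous ΔPG, 8 in heterozygous ΔG and 8 in homozygous ΔG cells, and no gene of the list was higher in any of them, where 13.6%, 11.3%, 11.7% and 12.1% of all genes were lower. The median log2 differences of the list were -0.76, -0.90, -0.75 and -0.82, beside medians over all genes tested of 0.0074, 0.0052, 0.043 and 0.016. Snhg12 fell in heterozygous ΔPG (-1.17), homozygous ΔPG (-1.05), heterozygous ΔG (-1.15) and homozygous ΔG cells (-1.32), and Snhg5 in heterozygous ΔPG (-0.80), homozygous ΔPG (-1.60), heterozygous ΔG (-1.53) and homozygous ΔG cells (-1.45).

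Between ΔPG genotypes, 4 of these 12 were higher in homozygous ES cells, Snhg5 (1.20 ± 0.064, log2, SE), Snhg4 (0.79 ± 0.10), 2410004N09Rik (0.58 ± 0.073) and Snhg12 (0.52 ± 0.087), with a list median of 0.26 beside 0.0019 over all genes, of which 6.87% were higher. After RA 2 were higher, Snhg4 (0.67 ± 0.15) and Snhg12 (0.64 ± 0.14), and 0.241% of all genes. In ΔG cells limma called 0 of 12 between genotypes in ES and 0 in RA (2 had an unadjusted p under 0.05 in ES and 2 in RA), and the list medians were -0.068 in ES and -0.098 in RA.

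Proteins that bind snoRNAs into particles (snoRNPs) were tested as a list of 15. After RA 7 were lower in heterozygous ΔPG cells and 9 in each of the other combinations, where 11.3% to 13.6% of all genes were lower, and the list medians were -0.44 in heterozygous ΔPG, -0.58 in homozygous ΔPG, -0.58 in heterozygous ΔG and -0.58 in homozygous ΔG cells. Dkc1, the pseudouridine synthase of H/ACA particles, fell in heterozygous ΔPG (-0.57), homozygous ΔPG (-0.83), heterozygous ΔG (-0.91) and homozygous ΔG cells (-0.90), and Nhp2, another H/ACA protein, in heterozygous ΔPG (-1.05), homozygous ΔPG (-0.84), heterozygous ΔG (-0.88) and homozygous ΔG cells (-0.94). Nop58, a core protein of C/D particles, rose by 0.82 ± 0.032 in homozygous ΔPG ES cells, where 5 of the 15 were higher and 1, Shq1, was lower (6.87% and 6.29% of all genes).

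**Figure D4:**
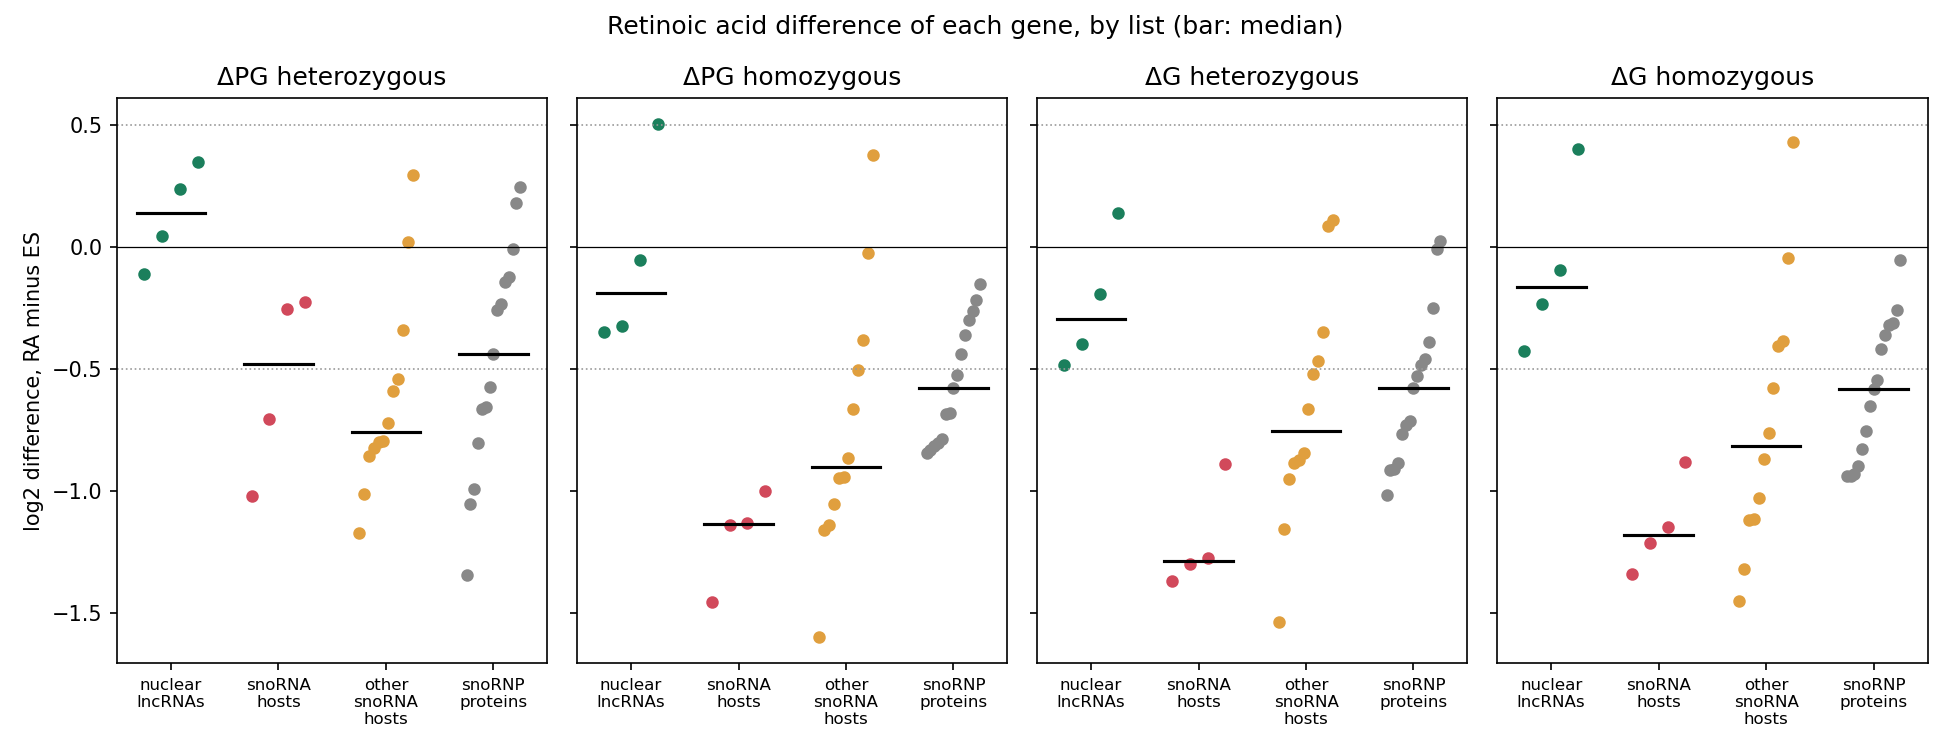
The log2 difference between RA and ES samples (vertical axis) of each gene in 4 lists, for the 4 combinations of line and genotype, with a bar at the median and dotted lines at the limits of -0.5 and 0.5. The 4 host genes and most genes of the lists of other host genes and snoRNP proteins lie below 0, while the 4 nuclear lncRNAs lie on both sides of it.

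Protein partners of the nuclear lncRNAs were called in both directions after RA. Of 14 paraspeckle proteins 2 were higher and 1 lower in heterozygous ΔPG and 2 higher and 2 lower in homozygous ΔPG cells. In ΔG cells 3 were higher and 2 lower in heterozygous and 3 higher and 0 lower in homozygous ones. Of all genes 27.8% to 31.6% were called. Hnrnph3, an RNA-binding protein, rose after RA by 1.01 in heterozygous ΔPG, 0.85 in homozygous ΔPG, 0.74 in heterozygous ΔG and 0.82 in homozygous ΔG cells, and Smarca4, a chromatin remodeler, by 0.51 in homozygous ΔPG, 0.52 in heterozygous ΔG and 0.56 in homozygous ΔG cells. Rbm14, also an RNA-binding protein, fell in heterozygous ΔPG (-0.64), homozygous ΔPG (-0.55) and heterozygous ΔG cells (-0.68), and Taf15 in homozygous ΔPG (-0.52) and heterozygous ΔG cells (-0.55). Of 13 nuclear speckle proteins 1 was higher and 2 lower in heterozygous ΔPG, 1 higher and 1 lower in homozygous ΔPG, 1 higher and 6 lower in heterozygous ΔG and 1 higher and 3 lower in homozygous ΔG cells, where 31.6%, 27.8%, 29.5% and 29.2% of all genes were called. Srrm2, a large scaffold protein of speckles, rose with RA in all 4 combinations (0.61, 0.69, 0.71 and 0.76), while the splicing factor Srsf2 fell in heterozygous ΔPG (-0.54), heterozygous ΔG (-0.79) and homozygous ΔG cells (-0.54), and Srsf3 in homozygous ΔPG (-0.60), heterozygous ΔG (-0.57) and homozygous ΔG cells (-0.67). U2af2 fell in heterozygous ΔPG cells (-0.68), Srsf5 (-0.65) and Srsf6 (-0.59) in heterozygous ΔG cells and Srsf7 in heterozygous (-0.53) and homozygous ΔG cells (-0.62). Between ΔG genotypes limma called 0 of the 14 paraspeckle proteins (2 had an unadjusted p under 0.05 in ES and 6 in RA) and 0 of the 13 speckle proteins (3 in ES and 7 in RA).

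Of 14 factors of nonsense-mediated decay, the pathway that degrades spliced host RNAs, 3 were higher and 3 lower in homozygous ΔPG ES cells, where 6.87% of all genes were higher and 6.29% lower. Magoh, a subunit of the exon junction complex, rose by 1.06 ± 0.049, and Upf1, the central helicase of the pathway, fell by 0.58 ± 0.065 (log2, SE). The list median was -0.22 in ΔPG ES cells. After RA Magoh rose by 0.54 in heterozygous ΔPG cells and fell in homozygous ΔG cells (-0.55). In each combination 1 to 2 of the 14 were lower, where 11.3% to 13.6% of all genes were. All genes include many weak ones, and among genes with a mean rlog of at least 3 a larger share was called, as given above. Rbm8a was lower in all 4 combinations, at -0.50, -0.54, -0.64 and -0.51 in heterozygous ΔPG, homozygous ΔPG, heterozygous ΔG and homozygous ΔG cells.

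Other lncRNAs were called in both directions after RA, where 27.8% to 31.6% of all genes were called. Of 19 tested in ΔPG cells 9 were higher and 4 lower in heterozygous and 8 were higher and 3 lower in homozygous cells, and of 20 tested in ΔG cells 7 were higher and 5 lower in heterozygous and 6 were higher and 3 lower in homozygous cells. H19, an imprinted lncRNA, rose by 5.35 in heterozygous ΔPG, 5.00 in homozygous ΔPG, 6.47 in heterozygous ΔG and 7.08 in homozygous ΔG cells, and Gm15051 (Hotairm1), from the Hoxa cluster, by 1.77, 1.71, 1.58 and 1.75. Between genotypes 3 of 19 were higher in homozygous ΔPG ES cells (6.87% of all genes were). In homozygous ΔG RA cells 2 of 20 were higher, Xist (1.20) and H19 (0.56), beside 0.676% of all genes. Between the other genotype groups limma called 0 of 19 in ΔPG RA and 0 of 20 in ΔG ES cells (6 and 3 had an unadjusted p under 0.05). As interactions 5 of 19 were lower in ΔPG (7.19% of all genes) and 2 of 20 higher in ΔG cells (1.19%).

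Trp53, which encodes a regulator of the cell cycle and of the stress response, and its targets set the ΔPG clones apart as well. Of these 8 genes 7 were lower in homozygous ΔPG cells in ES (6.29% of all genes were) and 7 in RA (0.605% of all genes), with Trp53 at -3.02 and -2.21 and Eda2r at -2.57 and -3.44, while limma called 0 of 8 between ΔG genotypes (2 had an unadjusted p under 0.05 in ES and 3 in RA). This difference accompanies that of Gas5, Snhg1, Snhg3 and 1500012F01Rik between the same ΔPG clones, and its part in them was not tested.

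Of the snoRNAs inside the 4 host genes, 22 loci correspond to 21 names in the tables, and 17 of these are listed at 0 in all samples. The exons annotated for Snhg1 cover its whole span of 2947 bases and those of Gas5 3760 of 4118, so reads of their snoRNAs also overlap host exons. SNORD24 and SNORD12 have values, but other loci share these names, and the values cannot be assigned to Gas5 or to 1500012F01Rik. Snora73a and Snora73b of Snhg3 are the 2 with values and a single locus each.

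Snora73b, an H/ACA box snoRNA that acts in the processing of ribosomal RNA, fell with RA in every combination. Its ΔPG values were 8.56, 8.65 and 8.57 in heterozygous ES and 7.19, 7.20 and 7.25 in heterozygous RA samples, and 8.89, 8.89 and 8.75 against 7.43, 7.52 and 7.59 in homozygous ones. Its ΔG values were 8.59, 8.68 and 8.59 in heterozygous ES and 7.56, 7.74 and 7.90 in heterozygous RA samples, and 8.76, 8.90 and 8.90 against 7.59, 7.56 and 7.71 in homozygous ones. All RA samples were below all ES samples. The log2 differences of Snora73b were -1.38 ± 0.040 (SE) in heterozygous ΔPG, -1.33 ± 0.060 in homozygous ΔPG, -0.89 ± 0.080 in heterozygous ΔG and -1.23 ± 0.066 in homozygous ΔG cells, all called lower. In heterozygous ΔPG cells Snhg3 itself differed by -0.23, not called here but called under quantile normalization, and in ΔPG ES cells, where Snhg3 rose by 1.504, Snora73b differed by 0.25 ± 0.049 and was under the limit on size. The differences between the snoRNA and its host were not tested.

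The sequences of the snoRNA pair are shown because reads of the copies can be told apart only at the positions that differ, and how the reads were shared between them was not tested. They lie on the minus strand at chr4:131908690-131908894 (Snora73a) and chr4:131908237-131908441 (Snora73b) of NCBIM37, are 205 bases long and are 96.6% identical, with 7 differing positions in capitals, and the ACA box ends 3 bases before the 3′ end. Snora73a was called in none of the comparisons.
Snora73a: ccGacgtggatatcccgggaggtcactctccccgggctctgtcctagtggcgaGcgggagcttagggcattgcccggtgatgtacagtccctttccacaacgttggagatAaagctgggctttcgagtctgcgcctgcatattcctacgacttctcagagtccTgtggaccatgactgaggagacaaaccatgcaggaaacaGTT
Snora73b: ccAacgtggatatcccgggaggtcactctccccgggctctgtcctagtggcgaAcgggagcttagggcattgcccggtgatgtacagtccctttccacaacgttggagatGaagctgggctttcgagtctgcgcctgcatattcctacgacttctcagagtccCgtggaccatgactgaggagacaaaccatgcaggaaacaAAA

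Starts of transcription were compared because many host genes of snoRNAs begin with a run of pyrimidines, as genes for ribosomal proteins do. RefSeq start sequences (GRCm38.p6, 50 bases before the start and 30 from it) matched 8 of the 9 genes with 9 starts, and Neat1 has no entry. A C at the first base followed by at least 4 bases that are each C or T is present in 3 of the 9 starts, on Gas5, Snhg8 and Miat, and in 2.51% of all 32851 starts (823). This is a description of the annotated first base and not of a measured one. The run is in capitals for the second start of Gas5 (chr1:161035116-161035195, plus strand) and for Snhg8 (chr3:123508307-123508386, minus strand), and the starts of Snhg1 (chr19:8723437-8723516, plus strand) and Snhg3 (chr4:132353657-132353736, minus strand), without such a run, are given beside them.
Gas5: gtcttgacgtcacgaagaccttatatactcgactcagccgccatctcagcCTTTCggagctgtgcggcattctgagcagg
Snhg8: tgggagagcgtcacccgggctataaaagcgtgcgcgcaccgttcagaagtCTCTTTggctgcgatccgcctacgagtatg
Snhg1: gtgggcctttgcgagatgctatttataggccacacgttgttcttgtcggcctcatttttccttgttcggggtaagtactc
Snhg3: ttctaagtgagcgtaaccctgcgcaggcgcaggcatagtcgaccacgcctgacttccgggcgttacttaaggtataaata

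The nearest protein-coding genes were read in the same comparisons, and whether any difference extended along the chromosome was not tested. After RA 27.8% to 31.6% of all genes were called. Slc3a2, the heavy chain of amino acid transporters, starts 126 bases from Snhg1 and fell with RA in heterozygous ΔPG (-1.24), homozygous ΔPG (-1.02), heterozygous ΔG (-1.20) and homozygous ΔG cells (-1.04), as did Wdr74, a ribosome biogenesis factor on the other side (-0.83, -0.61, -0.84 and -0.84). In homozygous ΔPG ES cells, where Snhg1 rose by 1.35, Slc3a2 differed by -0.36 and Wdr74 by -0.082, both under the limit on size. Rcc1, which overlaps Snhg3, fell with RA in heterozygous ΔPG cells (-0.88) and differed by -0.50 between ΔPG ES genotypes, while Phactr4 on the other side rose with RA in all 4 combinations, by 0.89, 0.93, 0.73 and 0.81.

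Near 1500012F01Rik, Ddx27, an RNA helicase of ribosome biogenesis, fell with RA in heterozygous ΔPG (-0.83), heterozygous ΔG (-0.66) and homozygous ΔG cells (-0.50), and Znfx1 fell by 0.52 in heterozygous ΔG cells. Between ΔPG ES genotypes Znfx1 differed by -0.016 and Ddx27 by -0.40, and neither was called. Zbtb37, which overlaps Gas5 on the other strand, rose with RA by 0.87 in heterozygous ΔPG cells. Near Malat1 and Neat1, Frmd8 fell by 0.67 in homozygous ΔPG ES cells. Smtn, 99181 bases from Tug1, fell by 0.56 in homozygous ΔG ES cells and rose with RA by 0.76 in homozygous ΔPG, 0.76 in heterozygous ΔG and 0.94 in homozygous ΔG cells. Morc2a lies nearer to Tug1, at 681 bases on the other side, and its values are not given here.

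The genes most like each host gene over the 24 samples were found by the root mean square difference of values centred within each table, among 11765 genes. For Gas5 they were Snhg4 (0.156), Dkc1 (0.159) and Eef1e1 (0.161), and for Snhg1 they were Atf7ip2 (0.163), Rpl30 (0.165) and Sycp3 (0.178). For Snhg3 they were Snhg1 (0.190), Gm7221 (0.198) and D14Abb1e (0.211), and for 1500012F01Rik they were Snhg12 (0.188), Gm11019 (0.200) and 2410006H16Rik (0.213). The nuclear lncRNAs ranged over less than 1 on the log2 scale in both tables and were left out of this search.

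Regions ligated to the promoter of 5430416N02Rik were called by 4C-seq (circular chromosome conformation capture) in 2 replicates, with 339 and 341 regions. The titles of these samples name no genotype, and the study describes this experiment before it introduces the edited lines. Malat1, Neat1, Snhg3 and 1500012F01Rik overlapped a region in both replicates, which is 4 of the 9 genes beside 34.2% of 49554 RefSeq genes. Tug1 and Miat overlapped one in replicate 1 alone, Gas5 in replicate 2 alone, and Snhg1 and Snhg8 in neither. In replicate 1 that is 6 of 9 genes and in replicate 2 it is 5 of 9, each beside 48.9% of RefSeq genes, so the share of these genes is near that of all genes.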

How the data were processed

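RNA was measured in 24 samples, 12 of the ΔPG and 12 of the ΔG line, and all 24 columns were used. Per the processing notes of the study, the authors trimmed the reads, aligned them with TopHat2 2.1.0, removed duplicates with Picard, counted reads by gene and strand with HTSeq 0.6.0 and made rlog values with DESeq2 1.14.1 for each line on its own. The deposited values are on the log2 scale, and no counts were used here, so the depth per sample and the precision it gives are unknown. Removal of duplicates can flatten differences of abundant short genes.

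Each comparison of homozygous with heterozygous cells or of RA with ES cells was fitted with limma 3.58.1 (R 4.3.3) with a variance trend on the 6 samples of its groups, and each interaction on the 12 samples of a line. The design took limma because the deposited values are rlog values. P-values were adjusted by Benjamini-Hochberg over all genes that vary, 21979 in ΔPG and 22048 in ΔG, and genes were called at adjusted p below 0.1 where the log2 difference also exceeded 0.5 in size. The fits were tested on simulated data. GC content and length of exons came from GENCODE models on NCBIM37, and trends were removed by lowess (span 0.3) over genes whose mean rlog reached 3. Tables and figures were made with Python 3.11.15, numpy 2.4.6, pandas 2.3.3 and matplotlib 3.10.9.

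The alternatives were no variance trend, a minimum mean rlog of 3, quantile normalization, median centring, all 12 samples in the fit, limits of 0.05 on the adjusted p and 1.5 on the fold, no limit on the difference, the replicate number as a block, each replicate left out, and removal of the GC or the length trend with and without the block. For 4C-seq the alternative was to require the whole gene inside a region, and leaving out either replicate was chosen after seeing the data.

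The genes named are the 9 members, 5430416N02Rik, the nearest or overlapping protein-coding gene on each side of a member, the 3 genes most like each member whose values range over at least 1 on the log2 scale, and of each related list at most 4 called genes per comparison, those with the largest differences. Values of such a gene in comparisons where it is not among these 4 were chosen after they were seen. The members and lists were chosen with earlier results of these data known.

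The deposited 4C-seq files hold only the start and end of each region. The labels name NCBIM37, but of 680 region starts 27 were within 8 bases of a HindIII site of that build and 9 regions reached beyond the last base of their chromosome, while after the local offset to GRCm38 was taken off 613 of 645 starts were near such a site, so regions were compared with RefSeq genes of GRCm38. The RNA immunoprecipitation and capture-C data of the study were not analysed here.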

Additional observations from a re-analysis of the deposited data

Results flagged for a closer look

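In ΔPG cells the RA difference differed between genotypes, by the interaction test of limma, for Malat1 (-0.56), Tug1 (-0.70), Miat (0.61), Snhg1 (-0.89) and Snhg3 (-1.23), and in ΔG cells for Miat (0.60), all on the log2 scale. With the GC trend removed Malat1 (-0.16), Tug1 (-0.016) and Snhg1 (-0.36) were no longer called, Snhg3 (-0.96) was, and Miat has no value. The ΔG call of Miat was lost in 10 of the 12 fits that leave out a sample.

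In other cases every sample of a group lay on opposite sides in the 2 lines, and the difference between the lines was not tested, because their tables were normalized separately. The difference between homozygous and heterozygous ES cells was 0.60 in ΔPG and -0.36 in ΔG for Tug1, 1.35 and -0.25 for Snhg1, and 0.99 and -0.26 for 1500012F01Rik, which was selected on its ΔPG values. After RA it was -0.24 in ΔPG and 0.50 in ΔG for Malat1 and 0.88 and -0.30 for 1500012F01Rik. The RA difference in heterozygous cells was 0.24 in ΔPG and -0.40 in ΔG for Malat1 and 0.35 and -0.48 for Tug1. The ΔPG ES groups differ by GC content as described, and with that trend removed the ΔPG ES value of Tug1 (-0.10) and the ΔPG RA differences in heterozygous cells of Malat1 (-0.082) and Tug1 (-0.13) have the sign of the ΔG values, so these are not opposite. In turn, Malat1 in ES cells had the same sign in both lines as deposited, but not with that trend removed (-0.083 in ΔPG and 0.33 in ΔG). The cause of the differences that stay or become opposite was not tested.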

How the results depend on the processing

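Of 1470 differences of single genes under an alternative 1350 kept their direction and side of the limits, 54 became called, 29 lost the call, 35 changed sign and 2 untested ones moved by more than the spread, and of 193 counts 155 stayed within 1.5 times. Below, each count is of the tested genes called, and the cause of a change was not tested unless stated. With RA in ΔPG cells these counts include 1500012F01Rik, which was chosen on samples of that line.

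With the GC trend removed, with or without the replicate block, 2 in place of 4 genes were called in ΔPG ES cells (865 genes in all, in place of 2893 over the wider set of 21979), 1 in place of 5 as interaction in ΔPG (1122, with the block 1126, in place of 3056 over that set) and 0 in place of 1 as interaction in ΔG. These fits take only genes with a mean rlog of at least 3, over which 4 genes and 2784 in all were called in ΔPG ES cells and 4 genes and 2976 in all as interaction in ΔPG before the removal. The sign changed in ΔPG ES cells for Malat1 (-0.083) and Tug1 (-0.10), with RA in heterozygous ΔPG cells for Malat1 (-0.082), Neat1 (-0.026) and Tug1 (-0.13), and in the ΔPG interaction for Gas5 (0.025). With the length trend removed, with or without the block, 0 in place of 1 gene was called in ΔG RA cells and 0 in place of 1 as interaction in ΔG, and the sign changed with RA for Neat1 in heterozygous ΔPG (-0.52) and heterozygous ΔG cells (-0.24) and Snhg3 in heterozygous ΔPG cells (0.025), and in the ΔPG interaction for Neat1 (0.054). These fits, and a minimum mean rlog of 3, which called 0 in place of 1 gene in ΔG RA cells and 0 in place of 1 as interaction in ΔG, give no value for Miat, the gene called there.

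Under quantile normalization 2 in place of 1 gene was called in ΔG RA cells and 5 in place of 2 with RA in heterozygous ΔPG cells. The RA difference changed sign for Malat1 in homozygous ΔPG (0.17), heterozygous ΔG (0.039) and homozygous ΔG cells (0.12) and for Neat1 in heterozygous ΔPG cells (-0.0094). The share of higher among called genes went from 35.9% to 48.8% in ΔG ES cells and, with RA, from 57.0% to 48.7% in heterozygous ΔPG, from 59.4% to 49.0% in homozygous ΔPG, from 60.2% to 47.96% in heterozygous ΔG and from 58.4% to 47.1% in homozygous ΔG cells.

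With limits of 0.05 and a fold of 1.5, 0 in place of 1 gene was called in ΔG RA cells (275 in place of 471 of all genes) and 0 in place of 1 as interaction in ΔG (268 in place of 524), and in ΔG ES cells 117 in place of 217 of all genes. Without a limit on the difference 3 in place of 0 were called in ΔPG RA (1006 in place of 186 of all genes), 5 in place of 0 in ΔG ES (1152 in place of 217), 4 in place of 1 in ΔG RA (2433 in place of 471), 5 in place of 2 with RA in heterozygous ΔPG (12607 in place of 6947), 7 in place of 4 with RA in homozygous ΔG (11772 in place of 6434) and 3 in place of 1 as interaction in ΔG (1164 in place of 524). Of all genes it called 7926 in place of 2893 in ΔPG ES, 11424 in place of 6116 with RA in homozygous ΔPG, 12012 in place of 6499 in heterozygous ΔG and 6387 in place of 3056 as interaction in ΔPG.

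With a replicate left out in turn the counts were 0 to 2 in ΔPG RA, 1 to 2 in ΔG RA and 0 to 1 as interaction in ΔG cells. They were 4 to 5 with RA in homozygous ΔPG and in heterozygous ΔG cells. The differences ranged from -0.075 to 0.098 for Snhg3 and from -0.10 to 0.044 for Miat in ΔG ES, from -0.039 to 0.089 for Gas5 and from -0.066 to 0.032 for Neat1 in ΔG RA, from -0.15 to 0.065 for Neat1 with RA in homozygous ΔPG, from -0.20 to 0.021 for Neat1 in the ΔPG interaction and from -0.12 to 0.049 for 1500012F01Rik in the ΔG interaction. For 4C-seq, with either replicate left out, chosen after seeing the data, 5 to 6 in place of 4 of the 9 genes overlapped a region.

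Same-numbered replicates had little in common: their deviations correlated between -0.03 and 0.09, none above 0.1. Of 6 best matches per comparison 0 to 5 were with the own number, with 5 of 6 between the ΔPG ES genotypes. With the number as a block all 90 results, differences and counts, stayed the same by the criteria above. They include untested differences of 1500012F01Rik, which had no call. Of all genes 112 in place of 186 were called in ΔPG RA and 44 in place of 217 in ΔG ES cells. Depth is unknown, so it cannot be said how many reads lie behind the values of Miat, the lowest of the 8 genes.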
